A study of Homo sapiens with 15 samples.

Results

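The 251 high-confidence BG4 regions of chromosome 22 in K562 cells are described here, out of 8955 regions in the whole list. They were taken by position alone. A region was counted as centromeric when its end lay at or below base 23660000 of hg19, which is inside BCR next to the end of the gene, and 121 regions met that rule. The other 130 lay distal to it, on the rest of the long arm. A G-quadruplex is a folded form of guanine-rich DNA in which planes of 4 guanines stack, and BG4 is an antibody that binds it. BG4 chromatin immunoprecipitation and sequencing was done on cross-linked chromatin of asynchronous K562, an established chronic myelogenous leukaemia line, and the labels name no treatment. There were 2 biological replicates, with technical libraries 1a and 1c in replicate 1 and 2a, 2b and 2c in replicate 2. All libraries come from 1 cell line, so both stretches of the chromosome were compared within each library. Input libraries of K562 and bisulfite libraries of HaCaT, a keratinocyte line, were not analysed here.

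BCR encodes a signalling protein with kinase and GTPase-regulating domains. In chronic myelogenous leukaemia a translocation joins the 5′ part of BCR to ABL1, a tyrosine kinase gene of chromosome 9. The fusion gene lies on the derivative chromosome 22, the Philadelphia chromosome, together with the part of 22q centromeric of the break. K562 is known to carry extra copies of this fusion. Peak callers compare the reads at a site with a local background, so a stretch with more DNA copies has more reads in both. Genome features of the line were checked first. None of the 3 genes of 9p21, which K562 has lost, had a peak in any library. Of the promoters of 12 erythroid genes, 9 had a peak in at least 1 library and 4 a high-confidence region, while 5 lymphoid promoters had no peak. Over all chromosomes 34.8% of protein-coding genes had such a region, so the erythroid share with a region was near that of all genes. The share of all genes with a peak in at least 1 library was not computed. The 9 erythroid promoters with a peak therefore cannot be called many or few. Most genes had no region, so a lack of peaks at so few 9p21 and lymphoid genes does not by itself set them apart.

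Sequences of 5 sites are given to show what kind of DNA lay under the peaks on both sides of the edge in BCR. All are the hg19 plus strand, and capitals mark runs of 3 or more G or 3 or more C. The strongest region of the chromosome lay at the start of TMEM191A, a transcribed pseudogene of a transmembrane protein family, at chr22:21057490-21057676. A pair of regions lay in BCR introns, at chr22:23566154-23566342 and chr22:23623999-23624292. A stretch of the BCR promoter region, at chr22:23522931-23522957, held a G4 motif. The first high-confidence region distal to BCR lay in the promoter window of SMARCB1, at chr22:24129474-24129654.
TMEM191A: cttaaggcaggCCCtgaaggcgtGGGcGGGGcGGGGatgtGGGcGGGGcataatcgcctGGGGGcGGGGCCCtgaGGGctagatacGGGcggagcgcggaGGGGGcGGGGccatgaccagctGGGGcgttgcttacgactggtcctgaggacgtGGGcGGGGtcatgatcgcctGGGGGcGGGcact
BCR promoter motif: CCCgcgCCCttCCCCCCggcgcgCCCC
BCR intron, proximal: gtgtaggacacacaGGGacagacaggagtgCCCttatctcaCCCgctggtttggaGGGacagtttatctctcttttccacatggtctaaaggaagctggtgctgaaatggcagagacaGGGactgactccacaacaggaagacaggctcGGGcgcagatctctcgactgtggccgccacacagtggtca
BCR intron, distal: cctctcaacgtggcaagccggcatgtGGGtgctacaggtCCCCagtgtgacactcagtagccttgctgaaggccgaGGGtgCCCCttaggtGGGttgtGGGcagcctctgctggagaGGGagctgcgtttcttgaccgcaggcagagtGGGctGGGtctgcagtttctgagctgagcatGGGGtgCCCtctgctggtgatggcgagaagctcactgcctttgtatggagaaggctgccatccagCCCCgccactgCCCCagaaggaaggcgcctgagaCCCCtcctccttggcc
SMARCB1: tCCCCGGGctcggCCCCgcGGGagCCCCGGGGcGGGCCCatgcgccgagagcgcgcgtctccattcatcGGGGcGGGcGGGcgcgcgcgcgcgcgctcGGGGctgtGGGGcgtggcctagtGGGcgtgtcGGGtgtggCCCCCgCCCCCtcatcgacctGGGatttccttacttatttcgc

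The TMEM191A region was 72.2% GC, with 16 runs of G and 2 runs of C in 187 bases. It met the G4 motif used here, which is 4 runs of 3 or more G, or of 3 or more C, with loops of 1 to 7 bases. Of the 251 regions 37.5% met it. The TMEM191A region held the letters GGGCGG 8 times, counted on both strands, and 69.3% of the 251 regions held them at least once. The proximal BCR intron region was 55.0% GC, with 4 runs of G and 2 of C in 189 bases, and the distal one was 62.9% GC. Neither BCR intron region nor the SMARCB1 region met the G4 motif. The SMARCB1 region was 76.2% GC with 28 CpG sites in 181 bases, against 5 CpG sites in the proximal BCR intron region.

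The first question was how densely BG4 regions lay on either side of the edge. The centromeric segment held 121 regions in 7.36 Mb outside assembly gaps, and the rest held 130 in 27.5 Mb. That was 16.4 against 4.72 regions per Mb, a ratio of 3.48. The number of protein-coding genes per Mb was close in both, at 12.9 and 12.4 (ratio 1.04), and strict CpG islands lay at 30.7 and 25.5 per Mb (ratio 1.21). CpG islands are CpG-rich stretches that mark most promoters. A strict island here joined windows of 500 bases in which G and C made up 0.55 or more of the bases and CpG reached 0.65 or more of the frequency that base composition gives. Per 100 genes there were 127 regions against 38.0 (ratio 3.35), and per 100 strict islands 53.5 against 18.5 (ratio 2.89).

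Promoters of the centromeric segment carried BG4 more often. Of its 95 protein-coding genes, 58 had a region within 1 kb of a start site (61.1%, 95% Wilson interval 51.0 to 70.2). In the rest 109 of 342 genes did (31.9%, 27.2 to 37.0), and over all chromosomes 34.8% of genes did. The difference was 29.2 percentage points, with a Newcombe interval of 17.9 to 39.5. Among genes with a strict island within 1 kb the shares were 57 of 81 (70.4%) and 106 of 270 (39.3%), and 45.4% over all chromosomes. Intervals cover counting error only, and neighbouring genes are not independent. When genes of every type were counted, among them the lambda light chain segments, the shares were 93 of 515 and 146 of 930, a difference of 2.36 points (−1.60 to 6.54).

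The same direction was seen in every library's own peaks. In library 1a, 66.3% of centromeric genes and 36.3% of the others had a promoter peak, against 38.5% of genes over all chromosomes. Library 1c had 63.2% and 28.9%, with 32.6% over all chromosomes. Library 2a had 61.1% and 28.9%, with 31.9%. Library 2b had 60.0% and 31.3%, with 35.5%, and library 2c had 62.1% and 40.4%, with 39%. The 5 centromeric shares thus lay between 60.0% and 66.3%, above each of the 5 shares of the rest. The difference was 29.8 ± 3.26 percentage points (SD over biological replicates, n = 2) and higher in 5 of 5 libraries. An exact two-sided sign-flip permutation test over the 5 libraries gave p = 0.0625, the smallest that its 32 sign patterns allow. The adjusted p over the 6 differences tested this way was also 0.0625. These libraries are technical repeats of 2 biological samples, so the p measures mostly technical spread.

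**Figure D1:**
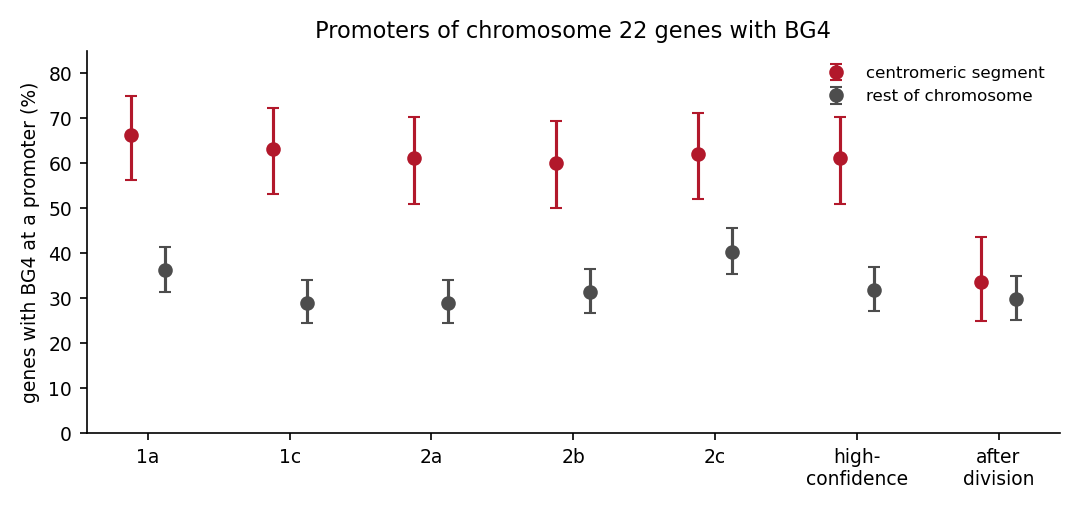
Share of protein-coding genes of chromosome 22 with BG4 within 1 kb of a start site (y axis, percent), in the peaks of each library, in the high-confidence regions, and after pileup and background were divided by the relative background, as described below. Points are shares and bars 95% Wilson intervals; the centromeric points lie at 60.0% or higher except after division, where they are 33.7% against 29.8%.

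CpG islands gave a smaller difference. Of 226 strict islands of the centromeric segment 61 met a region (27.0%), against 110 of 701 in the rest (15.7%) and 17.8% over all chromosomes. The difference was 11.3 points (5.21 to 17.9). Islands at promoters met a region in 59.8% and 32.2%, and islands farther away in 6.47% and 3.69%. With looser islands of 200 bases the shares were 3.63% and 1.42%, against 2.03% over all chromosomes, a difference of 2.21 points.

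Regions of the centromeric segment were more often away from promoters. Of its 121 regions, 52 (43.0%) lay farther than 1 kb from every protein-coding start site, against 26 of 130 (20%) in the rest and 23.4% over all chromosomes. The difference was 23.0 points (11.5 to 33.7), and 13.6 points (1.97 to 24.8) without library 1c. In the peaks of single libraries the difference was 45.5 points in 1a and 45.3 in 1c, and in 2a, 2b and 2c it was 15.7, 20.4 and 23.7. By class, 20 of the 52 lay at start sites of other gene types, 16 outside genes, 15 in introns and 1 in an exon. A strict island was met by 64.5% of centromeric regions and 86.2% of the others. A G4 motif was held by 34.7% and 40.0%, a difference of −5.29 points with an interval of −17.0 to 6.64. The median GC content was 67.4% and 71.4%. Among promoter regions a G4 motif was held by 43.5% and 43.3% and a strict island met by 94.2% and 93.3%. Among regions away from promoters, a strict island was met by 13 of 52 in the centromeric segment and 15 of 26 (57.7%) in the rest.

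A larger share of centromeric regions was found by all libraries. All 5 libraries had a peak at 78 of the 121 (64.5%), against 66 of 130 (50.8%) in the rest and 55.0% over all chromosomes, a difference of 13.7 points (1.46 to 25.3). With peaks of a −log10 p of at least 10 it was 25.6 points, against the next stretch of equal length 16.3 (−3.62 to 35.5), and after the division by background described further on −0.34 (−19.1 to 19.0). Widths of 500 bases or more were reached by 9 centromeric regions and 2 others. The widest 3 of the chromosome were at the promoters of YPEL1 (904 bases), of PI4KA and SNAP29 (734) and of CRKL (725).

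Single libraries differed in how many weak centromeric peaks they held. Library 1a had 471 peaks in the centromeric segment and 177 in the rest, and library 1c had 382 and 135. Libraries 2a, 2b and 2c had 114 and 123, 108 and 130, and 157 and 187. Both libraries of replicate 1 were high in the centromeric segment, while in the rest 1a and 1c lay within the range of 2a, 2b and 2c. Of the centromeric peaks, 25.1% in 1a and 28.0% in 1c met a high-confidence region. In 2a, 2b and 2c the shares were 86.8%, 94.4% and 73.3%. Peaks farther than 1 kb from promoters reached 48.6 and 39.7 per Mb in 1a and 1c, against 5.71, 5.71 and 10.9 in 2a, 2b and 2c. In the rest of the chromosome such peaks ran from 0.87 to 1.96 per Mb, and the share of peaks that met high-confidence regions was 67.4% to 87.8%.

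**Figure D2:**
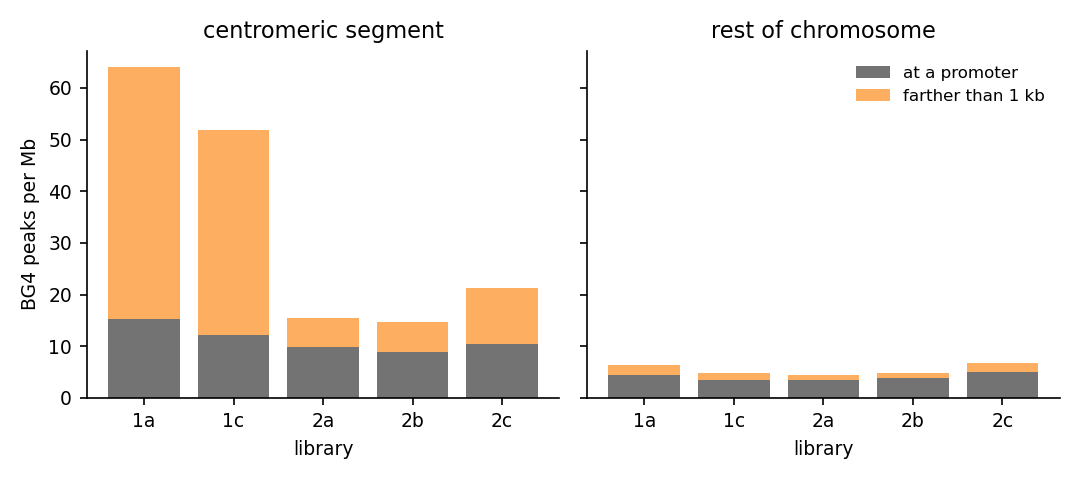
BG4 peaks per Mb outside assembly gaps (y axis) in each library (x axis), in the centromeric segment and in the rest of chromosome 22, stacked by whether a peak was near a promoter or farther away. The bars of 1a and 1c reach 64.0 and 51.9 in the centromeric segment, and those of replicate 2 lie between 14.7 and 21.3.

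The second question was whether the folds differed. The deposited fold enrichment is the pileup at the summit over the local background, each plus 1, and together with the deposited −log10 p it fixes both quantities. The pileup is the number of fragments over the summit. Solved this way, pileups were whole numbers in 100% of peaks of 1a, 1c, 2a and 2b within 0.05. In 2c 21.3% were whole as they stood, and 100% were whole multiples of 0.641. The relative background of a peak is its local background over the lowest value of its library.

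Centromeric peaks stood on a higher background, and had more fragments but lower folds. Over high-confidence regions the median relative background was 4.44 and 4.32 in libraries 1a and 1c. In 2a, 2b and 2c it was 5.26, 5.07 and 5.31. In the rest it was 1.00, 1.00, 1.03, 1.06 and 1.12, below every centromeric median. The log2 difference of the local background was 2.21 ± 0.11 (SD, n = 2), 4.62-fold, higher in 5 of 5 libraries (exact sign-flip permutation p = 0.0625). Solved with no pseudocount it was 1.12. The median pileup was 29 against 14 fragments in 1a, 28 against 13 in 1c, 27 against 13 in 2a and 30 against 14 in 2b. In 2c it was 35.9 against 19.2 on the scale of that list. The pileup was thus higher by 1.87 to 2.15 times, and the background by 4.32 to 5.12 times.

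Fold enrichment went the other way. The median fold over high-confidence regions was 6.35 against 8.11 in 1a, 5.82 against 7.59 in 1c, 5.49 against 7.0 in 2a, 4.94 against 6.33 in 2b, and in 2c it was 4.33 against 6.97. The log2 difference was −0.42 ± 0.07 (SD, n = 2), 0.749-fold, lower in 5 of 5 libraries (exact sign-flip permutation p = 0.0625). Over promoter regions only it was −0.28 ± 0.19. The median −log10 p was higher in the centromeric segment by 2.17 ± 0.21 (SD, n = 2), in 5 of 5 libraries (exact sign-flip permutation p = 0.0625). It was 0.14 in 2c and 1.96 to 3.32 in the other libraries. Without library 1a it was 3.81 and without 2c 3.76. With regions in all 5 libraries it was 3.93, higher in 4 of 5 libraries, and over all peaks of each list −0.47, lower in 3 of 5 (1a, 1c and 2c). In the centromeric segment 227, 133, 23, 10 and 52 peaks of libraries 1a to 2c had a fold below the lowest fold of the rest. Each list holds only peaks with a −log10 p of at least 5, which a peak on a higher background reaches at a lower fold. Such counts therefore depend on that cutoff, and its part in the lower median folds was not tested.

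**Figure D3:**
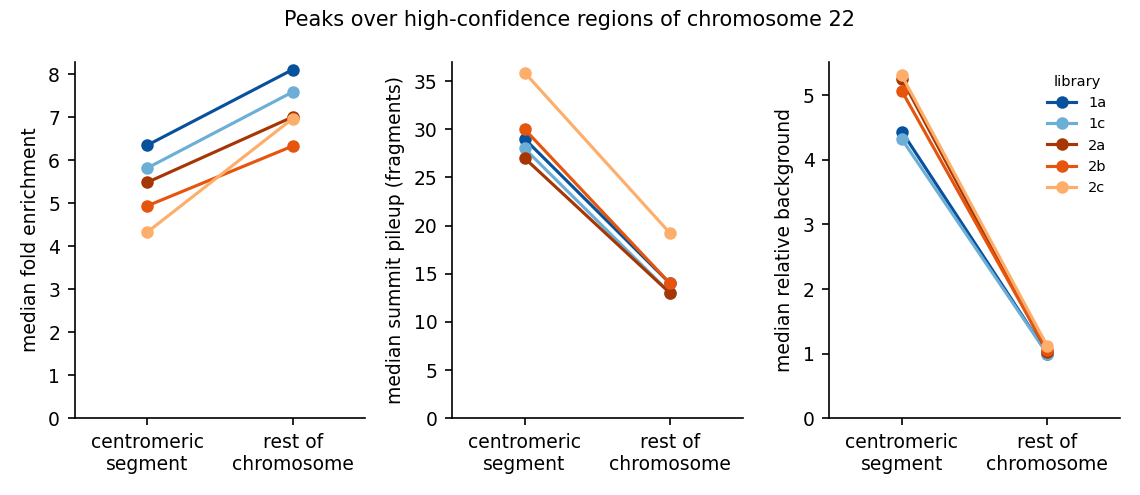
Median fold enrichment, summit pileup and relative background of peaks over high-confidence regions in the centromeric segment and in the rest, with 1 line per library. In each library the fold is lower and the pileup and background are higher in the centromeric segment.

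From 18 Mb on, the background rose towards BCR, and it was low again beyond the gene. In bins of 1 Mb the median relative background ran from 2.34 to 4.27 over the libraries between 17 and 18 Mb. It ran from 1.53 to 2.80 between 18 and 19 Mb, lower in 4 of 5 libraries, and from 4.38 to 4.90 between 19 and 20 Mb. It was 4.47 to 4.90 in the next bin, then 5.0 to 5.46, 5.92 to 6.60, and 8.41 to 8.86 between 23 and 24 Mb. Between 24 and 25 Mb it was 1.00 to 1.64. The centromeric segment was therefore not uniform, and its stretch near 18 Mb had a background closer to that of the rest. The median fold was 3.69 to 4.95 between 19 and 20 Mb, 4.09 to 6.65 between 21 and 22 Mb and 2.76 to 4.22 between 23 and 24 Mb, so it did not fall steadily. DNA copies were not measured here, so more copies of a stretch and another source of background cannot be told apart.

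**Figure D4:**
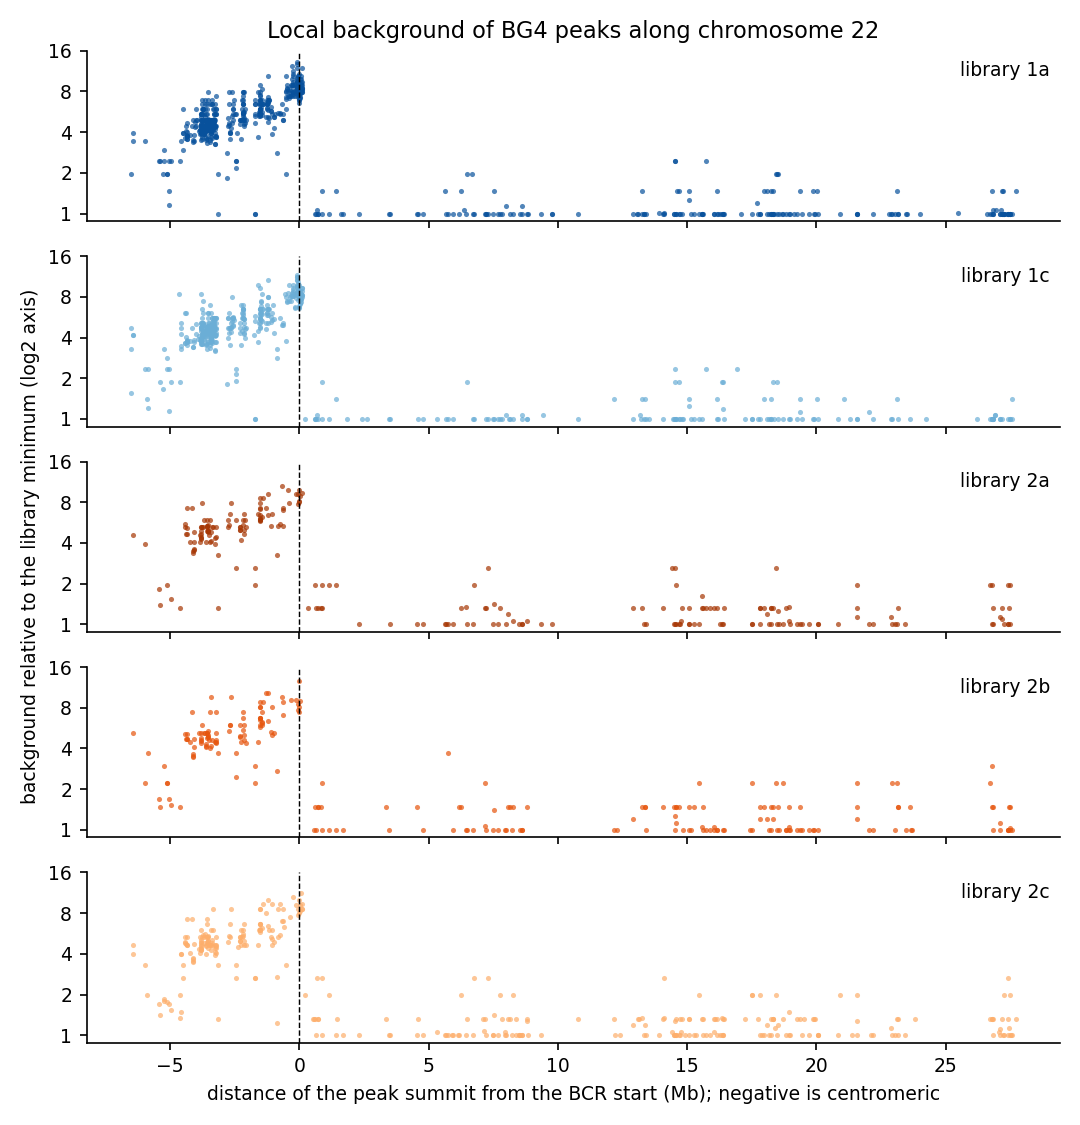
Relative background of every peak of chromosome 22 (y axis, log2 scale) by distance from the BCR start (x axis, Mb), 1 panel per library. Peaks before the dashed BCR start climb to 8 or more, and those after BCR lie mostly between 1 and 2.

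The change lay near the distal end of BCR, inside the gene or beyond it. The gene spans chr22:23521891-23660224 on the plus strand, 138 kb. Peaks inside it numbered 25 and 18 in 1a and 1c and 4, 3 and 7 in 2a to 2c, and their relative background was 6.76 or higher in each library. The most distal peak of high background in any library was in 1c and ended at base 23632238, 110 kb into the gene, with a relative background of 9.35. The next peak of any library began at base 23744793, in 2c, with a relative background of 1.99. In 1c the next began at 23744867 at 1.00. The change thus fell within 113 kb that hold the last 28.0 kb of BCR, a stretch with no peak in any library.

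**Figure D5:**
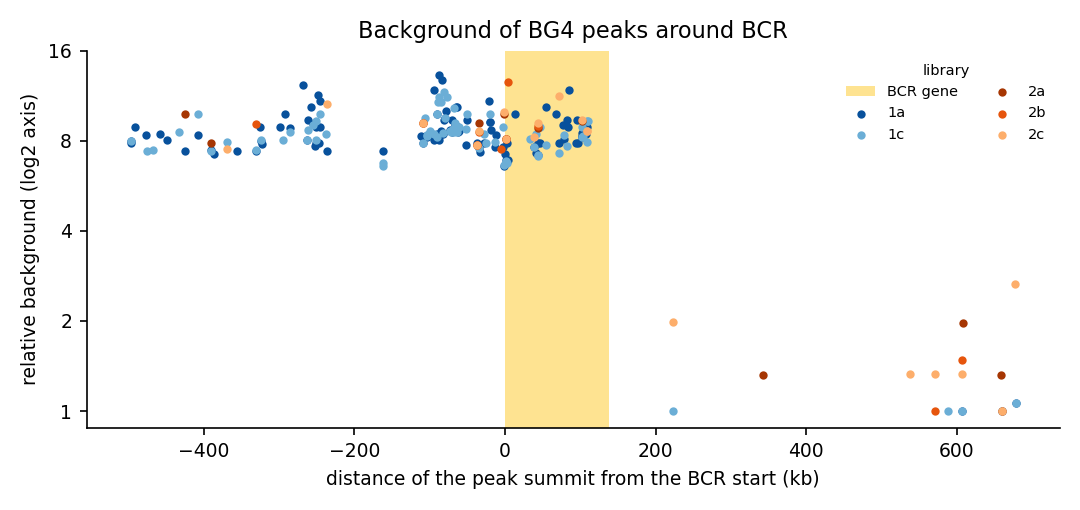
Relative background of peaks (y axis, log2 scale) around BCR by distance from its start (x axis, kb), coloured by library, with the BCR gene shaded. Points inside the gene lie between 6.76 and 12.6 and stop 110 kb into it; the points beyond it in view lie below 3.

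Regions at BCR and its neighbours had low folds on the highest backgrounds. The BCR promoter region (chr22:23522592-23523250, 80.9% GC) covered UTR and had folds of 6.26 and 6.04 in 1a and 1c and of 5.75, 4.73 and 3.92 in 2a to 2c. Its pileups were 42, 40, 41, 44 and 50.6, each above the median of its library in the rest of the chromosome. The region shared by RAB36, a small GTPase of membrane traffic, and RSPH14, a radial spoke head homologue, had folds from 3.86 to 6.60. The region at GNAZ, a G protein alpha subunit, had folds from 3.22 to 4.59. A second region at RSPH14 was found in 4 libraries, with folds from 2.96 to 4.02. The proximal BCR intron region shown above was found in 5 libraries, with folds of 5.63, 5.10, 3.54, 3.55 and 3.10, and the distal one in 4, with folds from 2.89 to 4.22. A further pair inside BCR was found in 3 libraries each. A region in 4 libraries lay just before the BCR gene, and 2 regions in 3 libraries each lay outside genes centromeric of GNAZ. IGLL5, a gene of the lambda light chain locus, had a peak in 1 library and no region.

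Distal to BCR the nearest genes had no high-confidence region. IGLL1 and VPREB3, of the pre-B cell receptor, RGL4, DRICH1, C22orf15 and MMP11, a matrix metalloproteinase, had no peak in any library. CHCHD10, a mitochondrial protein gene, had a peak in 1 library and ZNF70 in 2. No strict island lay at IGLL1, VPREB3, RGL4, DRICH1 and C22orf15, and 4.65% of chromosome 22 genes without such an island had a region. MMP11, CHCHD10 and ZNF70 had an island, and 39.3% of island genes of the rest had a region. All 4 of BCR, RSPH14, RAB36 and GNAZ had an island, so the genes on both sides of the edge are not alike. The first region was at SMARCB1, a subunit of the SWI/SNF chromatin remodelling complex. It had folds of 8.11 and 5.96 in 1a and 1c and of 5.91, 6.25 and 6.53 in 2a to 2c, on a relative background of 1.00 to 1.97. Its pileups of 10 to 18.6 fragments were each below those of the BCR promoter, while its fold was higher in 4 of 5 libraries. In 1c it was 5.96 against 6.04 at BCR.

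To put both segments on 1 scale, pileup and background of each peak were divided by its relative background and the −log10 p was computed again. Peaks that kept a value of at least 5 numbered 56 of 471 in the centromeric segment and 167 of 177 in the rest in library 1a, and 50 of 382 and 126 of 135 in 1c. They numbered 24 of 114 and 116 of 123 in 2a, 25 of 108 and 114 of 130 in 2b, and 30 of 157 and 172 of 187 in 2c. With regions rebuilt from these peaks, 32 of 95 centromeric genes (33.7%, 25.0 to 43.7) and 102 of 342 others (29.8%, 25.2 to 34.9) had a promoter region, against 30.4% over all chromosomes. The difference was 3.86 points, with an interval of −6.20 to 14.8. That of strict islands was −2.60 points (−7.17 to 2.84), and that of the share away from promoters 2.05 points (−11.1 to 20.3). The share of regions in all 5 libraries was 14 of 30 against 55 of 117. When only peaks of a fold of at least 5 were used, without division, the promoter difference was 22.6 points (11.5 to 33.4) and the share away from promoters differed by 5.57 points (−6.67 to 19.0). Both alternatives were chosen after seeing the data. Division can only remove peaks, and a site divided by a high background rests on few fragments.

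After division 30 of the 121 centromeric regions and 117 of the 130 others still met a region. None of the regions at BCR, RSPH14, RAB36 and GNAZ or inside BCR did, while that at SMARCB1 did. The regions away from promoters that still did numbered 6 of 52 in the centromeric segment and 21 of 26 in the rest. Division changes a peak on a low background little and a peak on a high background much. These contrasts, among them that of BCR and SMARCB1, therefore largely restate the backgrounds and are no separate result about the sites.

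Of 40 listed genes of the 22q11.2 deletion interval, which is lost in DiGeorge syndrome, 33 had BG4 at the promoter (82.5%). A strict island lay at 39 of the 40. The share was 70.4% of all centromeric genes with such an island, 45.4% of island genes over all chromosomes and 34.8% of all genes. The list is not the whole interval. It leaves out CCDC188, GGTLC3, RIMBP3, FAM246B, FAM230A, AIFM3 and AC002472.1, which had no region. Also left out are TMEM191B, ZNF74, TUBA3FP and a gene without a symbol, which had a region. The 82.5% therefore holds for the list and not for the interval. CRKL, an adaptor of kinase signalling that BCR-ABL1 phosphorylates, had folds of 12.5 and 8.23 in 1a and 1c and of 13.5, 10.4 and 8.29 in 2a to 2c. The shared promoter of HIRA, a histone H3.3 chaperone, and MRPL40, a mitochondrial ribosomal protein, had folds from 7.48 to 13.6. That of DGCR2, an adhesion receptor, had 17.1 in 1a and 13.4 in 1c, against 7.11 to 9.74 in replicate 2. DGCR6, the shared promoter of PI4KA, a lipid kinase, and SNAP29, a membrane fusion protein, that of GNB1L and RTL10, and TANGO2 were also among the best 10 of the segment. TBX1, the T-box transcription factor of the syndrome, had lower folds of 3.45 to 4.49. CLDN5, an endothelial tight junction gene, and GSC2, a homeobox gene, had no region. After division 22 of the 40 genes had one, against 30.4% of genes over all chromosomes, CRKL, HIRA, MRPL40 and DGCR2 among them, and TBX1 did not. That 30.4% is of genes with or without a strict island, and the share of island genes after division was not computed. TBX1, named for the syndrome, was chosen after its values were seen.

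The more centromeric cat eye region, duplicated in cat eye syndrome, had BG4 at 5 of 15 genes (33.3%, 15.2 to 58.3), near the 34.8% of all genes. BCL2L13, a mitochondrial protein of the BCL2 family, had folds from 5.73 to 8.20 on a relative background of 1.40 to 2.47. PEX26 of peroxisome biogenesis had folds from 5.04 to 9.10. IL17RA, the interleukin-17 receptor, had 4.87 to 6.86, and ATP6V1E1, a proton pump subunit, had a region in 4 libraries. ADA2 and BID had no peak in any library. After division 3 of the 15 genes had a region, against 33.7% of centromeric genes and 30.4% of genes over all chromosomes.

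Around the lambda light chain genes 10 of 17 genes had a region (58.8%, 36.0 to 78.4), against 61.1% of centromeric genes and 34.8% of all genes. The list crosses the edge. Of its genes 15 were centromeric, and all 10 with a region were among these, while IGLL1 and VPREB3 lay in the rest. YPEL1 had folds from 6.90 to 11.5 on a relative background of 6.20 to 6.90. SDF2L1, an endoplasmic reticulum chaperone cofactor, had folds from 5.24 to 11.8 at its better region. YDJC had 5.11 to 8.37 and PPM1F, a protein phosphatase, 4.89 to 8.10, each at its better region. GGTLC2 had a peak in 1 library. After division 3 of these 17 genes had a region, and 0 of the 4 genes BCR, RSPH14, RAB36 and GNAZ did. Of these 4, RSPH14 and RAB36 share a region and are not separate sites. After division 33.7% of centromeric genes and 30.4% of genes over all chromosomes had a region.

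The strongest 10 regions of the chromosome came from both segments. They were ranked by their lowest percentile of fold over the 5 lists. TMEM191A ranked first, with folds of 17.1 and 12.8 in 1a and 1c, 15.4 and 14.2 in 2a and 2b, and 12 in 2c. Its relative background was 2.34 to 2.65, below that of its surroundings. The region at the related gene TMEM191C had folds from 7.76 to 16.8 on a relative background of 1.00 to 2.65. These are near-identical copies, so reads may have been shared out or dropped between them, and both their folds and their low backgrounds are uncertain. The copies SERHL2 and SERHL, serine hydrolase-like genes of the rest, and DGCR6 and DGCR6L are uncertain in the same way. SERHL2 had folds from 8.28 to 15.7 and SERHL from 8.24 to 11.1. MYH9, the heavy chain of non-muscle myosin, had folds of 14.6, 9.15, 10.9, 12.5 and 10.1 in 1a to 2c. RANGAP1 of nuclear transport had 8.07 to 11.8, on a relative background of 1.00. FAM118A had 8.28 to 11.3 and ZBED4 7.48 to 15.1, and CRKL and the promoter of HIRA and MRPL40 completed the 10.

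Other gene groups of the chromosome were mostly in the rest. Of 15 tumour genes of 22q, each with a strict island, 11 had a region (73.3%, 48.0 to 89.1), against 45.4% of island genes over all chromosomes. The NF2 tumour suppressor had folds from 6.59 to 10.7 and MRTFA, a coactivator of serum response factor, 5.54 to 10.7, while EWSR1 had a peak in 1 library and MN1 in none. Of the 7 APOBEC3 cytidine deaminase genes, which have no strict island, APOBEC3C alone had a region, in 3 libraries. A mixed list of 10 genes held HMOX1 and TMPRSS6 but also IL2RB, NCF4 and RAC2, so it does not describe erythroid genes. Of these 10 only GP1BB, a platelet glycoprotein gene of the 22q11.2 interval, had a region, and a strict island lay at 4 of them. Both counts stand beside 34.8% of all genes, and 4.65% of chromosome 22 genes without a strict island had a region. CSF2RB had no peak and CYB5R3 a peak in 1 library.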

How the data were processed

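Peaks were called on hg19 with MACS2, per the submitters' processing notes; the version, aligner, control library and settings are not given in the sources used here. The deposited fold enrichment is a ratio of summit pileup to local background by the authors' peak caller. The deposited −log10 p and −log10 q belong to the summit, and the deposited score is 10 times the −log10 p without its decimals. These values are the authors' own, per peak, and were compared only within a list. High-confidence regions were deposited as positions alone; bases covered by at least 3 of the 5 lists gave the same 251 regions of chromosome 22. The peak names of lists 2a and 2c carry each other's letter, and the sample labels were followed. Read totals are not given in the sources used here.

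Local background and pileup were solved from fold and −log10 p under a Poisson model with a pseudocount of 1. Tested on simulated data, the solver recovered 100% of the backgrounds of 3000 peaks with whole and 2943 with scaled pileups. Promoters were within 1 kb of start sites of protein-coding transcripts in GENCODE 44 mapped to GRCh37. Means and SDs were taken over the 2 biological replicates, each the mean of its libraries. Shares have 95% Wilson intervals and differences Newcombe intervals. Tests were exact two-sided sign-flip permutation tests over libraries, with Benjamini-Hochberg adjustment. Named genes were the best 10 regions of the chromosome and of the centromeric segment by lowest percentile of fold, the 3 widest regions, all regions and genes within 500 kb of BCR, and from each gene list the 4 members whose region ranked highest and the 2 alphabetically first without a region. The members, lists and this rule were chosen with earlier results of these data known. Alternatives were stricter peaks or regions, other edges, promoters, islands and overlaps, and leaving out each library. Python 3.11.15, pandas 2.3.3 and SciPy 1.17.1 were used.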

Additional observations from a re-analysis of the deposited data

Results flagged for a closer look

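The fold difference between the centromeric segment and the rest was −0.69 on the log2 scale in library 2c, far from the −0.38 to −0.35 of the other 4 libraries. The gap to the nearest library was 0.909 of the whole range, above the limit of 0.71 for 5 values. Chance alone puts about 1 in 20 such groups past that limit. Library 2c was also the list whose pileups were multiples of 0.641 and not of 1, and its lowest local background, 1.51, was the highest of the 5 lists. The part of that scaling in the difference was not tested. Without 2c the mean difference was −0.32.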

How the results depend on the processing

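Of 87 recalculated values for 7 results, 64 stayed within the interval or spread of the reported value, 20 moved beyond it and 3 changed sign. Promoter differences ran from 31.8 to 35.3 points when 1 library was left out, island differences from 12.4 to 13.7, non-promoter differences from 13.6 to 22.1, log2 background differences from 2.14 to 2.22, log2 fold differences from −0.45 to −0.32 and −log10 p differences from 1.93 to 3.81. Counting genes of every type gave a promoter difference of 2.36 points, and looser islands an island difference of 2.21. Dividing pileup and background by the relative background gave 3.86 points for promoters, −2.60 for islands, 2.05 for non-promoter regions and −0.34 for regions in all 5 libraries. With folds of at least 5 the non-promoter difference was 5.57 points. All peaks of each list gave log2 differences of −0.62 for fold and 2.32 for background, and −0.47 for −log10 p. Promoter regions only gave −0.28 for fold. A background solved with no pseudocount differed by 1.12. The −log10 p difference was 3.86 when a −log10 p of 10 was required of peaks, 3.93 with regions in all 5 libraries, 2.78 against the next stretch of equal length and 2.77 with a reciprocal overlap of 50%. The share in all 5 libraries differed by 25.6 points when that −log10 p was required, and by 16.3 (−3.62 to 35.5) against the next stretch of equal length. Division lowers the −log10 p of peaks on a high background by construction, and for the other shifts the cause was not tested. No paired analysis was possible because the groups that share replicate numbers in the labels, those of HaCaT, were not analysed here. The differences between segments were already taken within each library. Pileups of 10 to 30 fragments limit the precision of single peaks.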

Other observations

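Over all chromosomes, bins of 1 Mb with at least 20 peaks and a peak from every library were ranked by the median relative background of their peaks. The bin from 23 Mb of chromosome 22 ranked 3 of 737, at 8.46, and the bins from 22, 21, 20 and 19 Mb ranked 4 to 7. The bin from 133 Mb of chromosome 9, which holds ABL1, ranked 2, at 8.83. The first bin was from 133 Mb of chromosome 2, at 39.5 over 34 peaks. The centromeric segment of chromosome 22 held 64.5% of all peaks with a relative background of at least 4 in library 1a and 60.1% in 1c. In 2a, 2b and 2c the shares were 53.0%, 46.6% and 66.7%. Of peaks of any background, the segment held 3.77% in 1a and 3.79% in 1c, and 1.42%, 1.20% and 1.41% in 2a, 2b and 2c. That baseline was higher in replicate 1, so the shares are not comparable between replicates.

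ABL1 (chr9:133588430-133763062), the partner of BCR, showed the opposite order, low at its start and high farther on, inside the gene only in 1a. Peaks wholly inside the gene numbered 2 in 1a and 0 in each of 1c, 2a, 2b and 2c. At its start the relative background was 1.10 to 1.99 over the libraries. The first peak of a value of at least 4 lay 122 kb into ABL1 in library 1a, at 7.45, and beyond the gene in the other libraries, at 8.33 to 9.40. The last such peak ended 391 kb after ABL1 in each library. The next peak had a value of 1.10 to 2.65.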
